A study of Mus musculus castaneus and Mus musculus domesticus and Mus musculus with 11 samples.

Results

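The genes described here encode the synaptic vesicle and its release machinery. They were chosen as a list of 36 symbols, matched by mouse Ensembl gene ID to a matrix of read counts for 27071 genes, and 35 of the 36 were found there. Syt11 was not analysed here. All 35 passed the filter on low counts, as did 14839 genes in all. The matrix covers 9 RNA-seq libraries of differentiated motor neurons, 3 from each of 3 mouse cell lines. The first line is 129S6/SvEv, called 129 here, and the second is CAST/EiJ, called CAST. The third is their hybrid, CASTx129, which the labels write as 129CAS. Libraries are named by line and number, such as CAST 1. The labels give no genetic change or treatment for any line and no age or culture time. Of the 11 samples they list, 2 CAST samples numbered 7 and 8 are tied to a second matrix, not analysed here. Nothing in the labels tells whether the 3 libraries of 1 line are separate cultures, and p-values therefore measure only the spread between these samples, which may be technical.

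A synaptic vesicle is loaded with transmitter, tethered near the membrane, primed, fused when calcium enters, and taken back up. Synapsins hold vesicles in a reserve pool, Rab3 proteins and the active zone scaffold bring them to the release site, and Vamp2 on the vesicle zips together with Stx1a and Snap25 on the plasma membrane. Complexins hold the assembled SNARE bundle ready, synaptotagmins sense calcium, Nsf and its attachment proteins take spent bundles apart, and dynamins with clathrin adaptors recover the membrane. At the neuromuscular junction this cycle releases acetylcholine onto muscle.

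Many of these genes come in closely related pairs, so the coding sequences were compared first, because reads from a shared stretch could be counted for either gene. Among the 15 pairs compared, the longest run of identical bases was 32, in Cplx1 and Cplx2, whose coding sequences of 402 bases each were 79.6% identical. The next longest was 26 bases, found in 5 pairs, Dnm1 and Dnm3 among them. The first 120 coding bases of the 2 complexins and coding bases 91 to 180 of the 2 dynamins are printed from the GENCODE M21 transcripts, 5′ to 3′, with capitals at the bases that differ within the pair. These pairs are shown because their genes took unlike levels within some libraries, given with the SNARE and recycling genes.
Cplx1: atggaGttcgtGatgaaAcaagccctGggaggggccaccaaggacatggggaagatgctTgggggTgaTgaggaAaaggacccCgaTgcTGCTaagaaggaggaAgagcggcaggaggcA
Cplx2: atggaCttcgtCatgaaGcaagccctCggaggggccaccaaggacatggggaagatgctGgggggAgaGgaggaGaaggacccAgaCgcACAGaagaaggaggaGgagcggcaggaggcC
Dnm1: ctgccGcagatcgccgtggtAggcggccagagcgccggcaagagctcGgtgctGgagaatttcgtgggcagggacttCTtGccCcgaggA
Dnm3: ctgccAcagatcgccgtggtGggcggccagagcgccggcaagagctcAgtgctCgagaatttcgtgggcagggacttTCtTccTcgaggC
The complexins differ at 16 of the 120 bases shown and the dynamins at 9 of 90. Cplx1 lies on chromosome 5 and Cplx2 on chromosome 13, Dnm1 on chromosome 2 and Dnm3 on chromosome 1.

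Total counts per library ran from 7763077 (hybrid 2) to 18167577 (129 1). Levels are given as CPM, the counts scaled by library totals after TMM correction. The libraries differed in how CPM moved with exon length, taken as the change in log2 CPM per doubling of exon length relative to the mean of all libraries. Over 14009 genes it was lowest in hybrid 2, at −0.66, and CAST 1, at −0.57. It was −0.26 in hybrid 3, 0.09 in hybrid 1, and 0.18 to 0.34 in CAST 2, CAST 3 and the 129 libraries. Every hybrid library lay below every 129 library. All 10 general neuron markers were detected in every library, and their summed level ran from 5330 to 14624 CPM. All 8 spinal motor neuron markers were detected too, apart from Lhx3 at 0 in hybrid 1, with sums of 359 to 3230 CPM. All 8 fibroblast and mesenchyme markers were also present in every library, with sums of 3634 to 18049 CPM in 129, 461 to 4256 CPM in CAST and 908 to 19098 CPM in the hybrid. In these bulk samples, fewer cells of a type and less RNA per cell cannot be told apart. In the hybrid, calls also moved with overlap on the opposite strand. A gene is called where its adjusted p is under 0.05. Among 10110 genes with no exonic base shared with a gene on the other strand, 3.3% were called higher in the hybrid than in 129, against 28.3% of the 678 genes that share over 25% of their exonic bases. The same shares in CAST against 129 were 0.445% and 0.147%. Calls in the lower direction took 1.31% and 5.16% in the hybrid against 129, and 0.584% and 0.147% in CAST against 129.

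Of the 35 genes, 1 passed the edgeR test in any comparison: Syn3, the third synapsin, was higher in the hybrid than the mean of both parental lines. No gene of the list was called in a pair of lines tested against each other, although the median of the list was lower in the hybrid than in either parent. Together they took 0.394%, 0.553% and 0.914% of all counts in 129 1 to 3, 0.561%, 0.643% and 0.551% in CAST 1 to 3, and 0.347%, 0.287% and 0.616% in hybrid 1 to 3. The 3 CAST shares all lay inside the range of the 129 libraries, and the hybrid held both the lowest share, in hybrid 2, and one above 129 1, 129 2, CAST 1 and CAST 3, in hybrid 3.

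**Figure D1:**
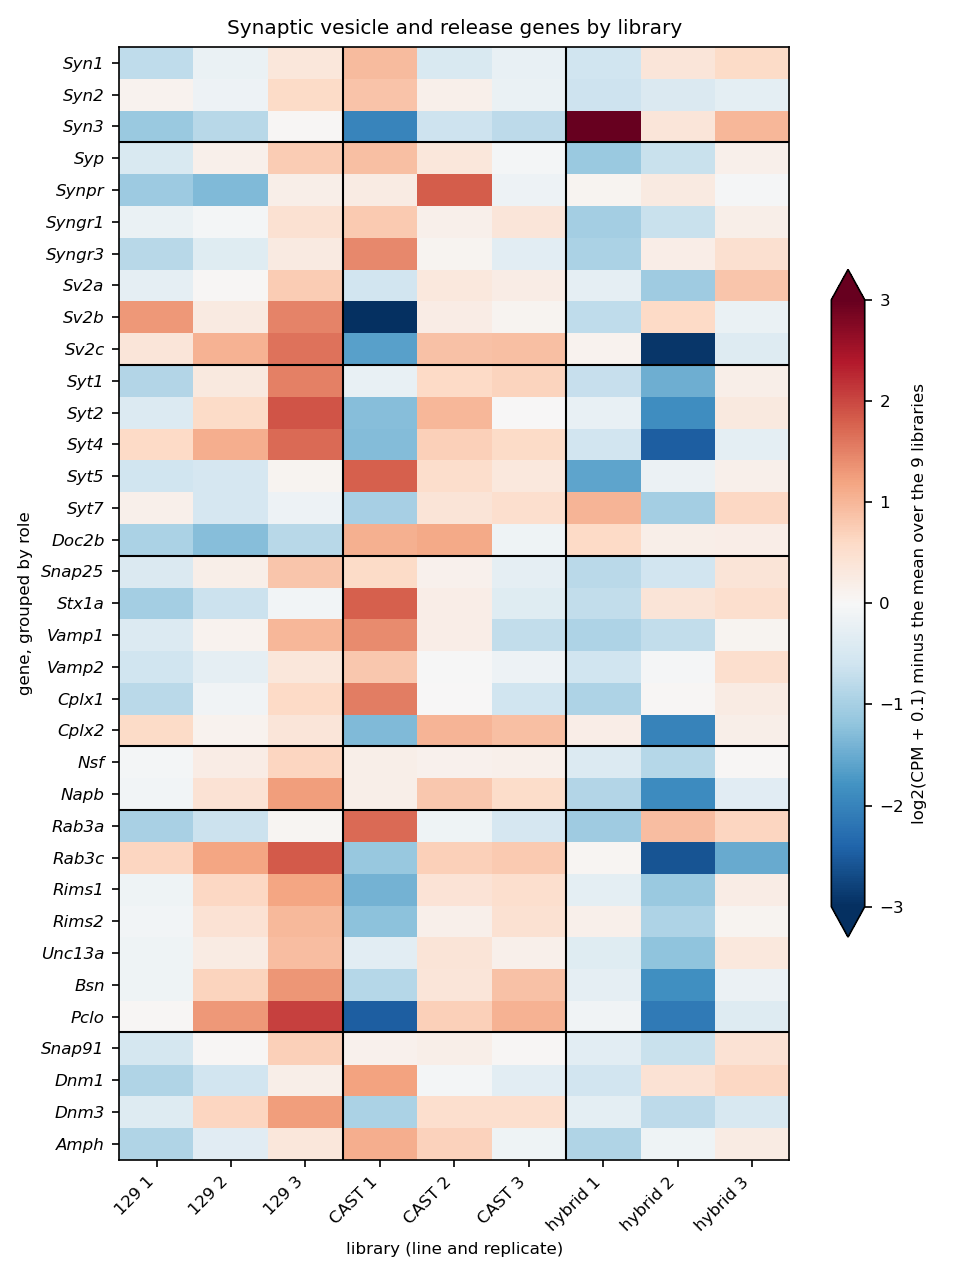
Each row is 1 of the 35 genes, grouped by role, and each column 1 library, and the colour is log2(CPM + 0.1) minus the gene's mean over the 9 libraries. 129 3 is red in most rows, but blue for Doc2b and near the mean for some other genes. CAST 1 and hybrid 2 are red for some genes and blue for others, and Syn3 is deep red in hybrid 1.

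Levels of different genes were compared per length, as TPM, counts scaled by exon length and by the library's sum. Each gene has the same exon length in every library, so TPM keeps the length slopes of the libraries. These slopes were negative in CAST 1, hybrid 2 and hybrid 3. Means over the 9 libraries spanned from 602 TPM for Syt4 to 1.56 TPM for Sv2b. After Syt4 came Cplx1 at 380 TPM, Rab3a at 337 TPM, Vamp2 at 330 TPM, Syp at 267 TPM, Syngr3 at 252 TPM and Syn1 at 229 TPM. The lowest were Syn3 at 17.5 TPM, Dnm3 at 9.48 TPM, Doc2b at 7.17 TPM, Synpr at 4.22 TPM and Sv2b. No 2 neighbours in this order were separated in all libraries, so the order of neighbours is not beyond their spread. Syt4 ranked first in 129 with 1061 ± 442 TPM (SD, n = 3) and in CAST with 526 ± 374 TPM (SD, n = 3), and behind 4 other genes in the hybrid with 218 ± 156 TPM (SD, n = 3). Rab3a ranked first in the hybrid with 334 ± 172 TPM (SD, n = 3).

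**Figure D2:**
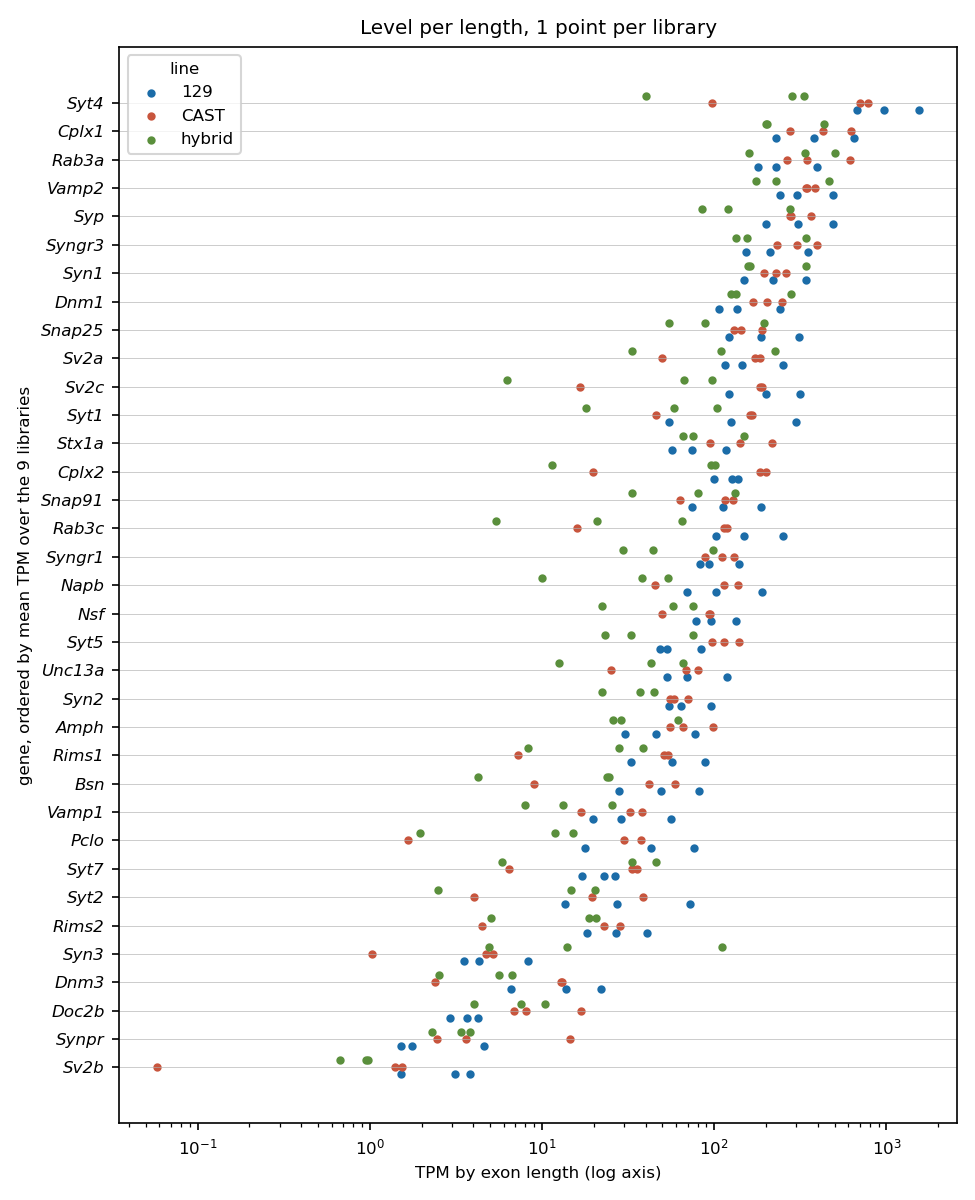
The TPM of each gene is plotted on a log axis, with 1 point per library and genes ordered by their mean over the 9 libraries. Syt4, Cplx1, Rab3a and Vamp2 stand at the top and Sv2b at the bottom, and the points of neighbouring genes overlap.

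Synapsins coat the vesicle surface and tie vesicles to each other and to actin. Syn1 stood at 111, 163 and 239 CPM in 129 1 to 3, at 365, 138 and 162 CPM in CAST 1 to 3, and at 125, 244 and 282 CPM in hybrid 1 to 3. The 3 lines overlapped, and CAST 1 was the highest library. Syn2 stood at 103, 86.3 and 144 CPM in 129, at 173, 107 and 83.5 CPM in CAST, and at 62.8, 71.4 and 78.2 CPM in the hybrid. Every hybrid library was below every parental library for Syn2, with log2 fold changes of −0.65 ± 0.37 (SE) against 129 and −0.77 ± 0.37 (SE) against CAST, neither past the threshold (edgeR quasi-likelihood test, Benjamini-Hochberg adjusted p = 0.320 and 0.369). Per length, Syn1 was above Syn2 in 9 of 9 libraries, by 2.30 to 7.68 times in TPM. Syn1 was above Syn3 in 9 of 9 libraries too, but by 1.42 times in hybrid 1 against 24.6 to 253 times in the other 8.

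Syn3 was the gene of the list that was called. It lies on the minus strand of chromosome 10, from 86055125 to 86498896 (GRCm38, ENSMUSG00000059602). Its level was 9.84, 12 and 21.8 CPM in 129 1 to 3, 5.37, 13.8 and 12.4 CPM in CAST 1 to 3, and 328, 27.7 and 42.6 CPM in hybrid 1 to 3. The lines gave 14.5 ± 6.37 CPM, 10.5 ± 4.50 CPM and 133 ± 169 CPM (mean ± SD, n = 3 each). All 3 hybrid libraries were above all 6 parental libraries, and hybrid 1 was far above the other 2. Against the midparent, the mean of both parents on the log2 scale, the log2 fold change was 3.42 ± 0.72 (SE), with an adjusted p of 0.0163 by the edgeR quasi-likelihood test over all genes. This 1 of 35 stands beside a background of 7.34% of all tested genes called in that comparison, with 5.88% of all tested genes higher and 1.46% lower. Without hybrid 1 the log2 fold change was 1.5 with an adjusted p of 0.0843, and without 129 2 it was 3.36 with an adjusted p of 0.0516, so the call was lost in both. Limma-voom gave 2.64 with an adjusted p of 0.0662, also without a call. Against 129 alone the log2 fold change was 3.19 ± 0.92 (SE, adjusted p = 0.0778), and against CAST alone 3.65 ± 0.94 (SE, adjusted p = 0.0555). A joint F test over the 3 lines also called Syn3 alone of the list (adjusted p = 0.0404), with 8.03% of all genes called. Leaving out any one of 129 1, 129 2, 129 3, CAST 1, CAST 2 or hybrid 1 left 0 genes of the list called. Shares over all genes in those smaller fits are not given here, so a general loss of calls cannot be told apart from a loss of Syn3.

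Syn3 encloses Timp3, the gene of a metalloprotease inhibitor, which is transcribed from the other strand. The 2 genes share 1733 exonic bases, from 86347774 to 86349506 on chromosome 10, which make up 14.1% of the exonic bases of Syn3. These bases lie in an exon of a Syn3 transcript annotated as a retained intron and in the last exon of Timp3. Timp3 stood at 1936, 1516 and 571 CPM in 129, at 55.1, 482 and 803 CPM in CAST, and at 801, 48.1 and 70.9 CPM in the hybrid. Syn3 thus had 0.508, 0.788 and 3.82 counts per 100 Timp3 counts in 129 and 9.74, 2.85 and 1.54 in CAST. The hybrid libraries had 40.9, 57.6 and 60.2 Syn3 counts per 100 Timp3 counts, although Syn3 itself spanned 11.9 times in CPM among them. Among genes with 5% to 25% of their exonic bases shared with the other strand, 10.8% were called higher in the hybrid than the midparent, against 3.67% of genes with none. Whether the counting used strand is not given in the sources used here, gene-level counts do not show where in Syn3 the reads lay, and the part of Timp3 reads in the Syn3 result was not tested.

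**Figure D3:**
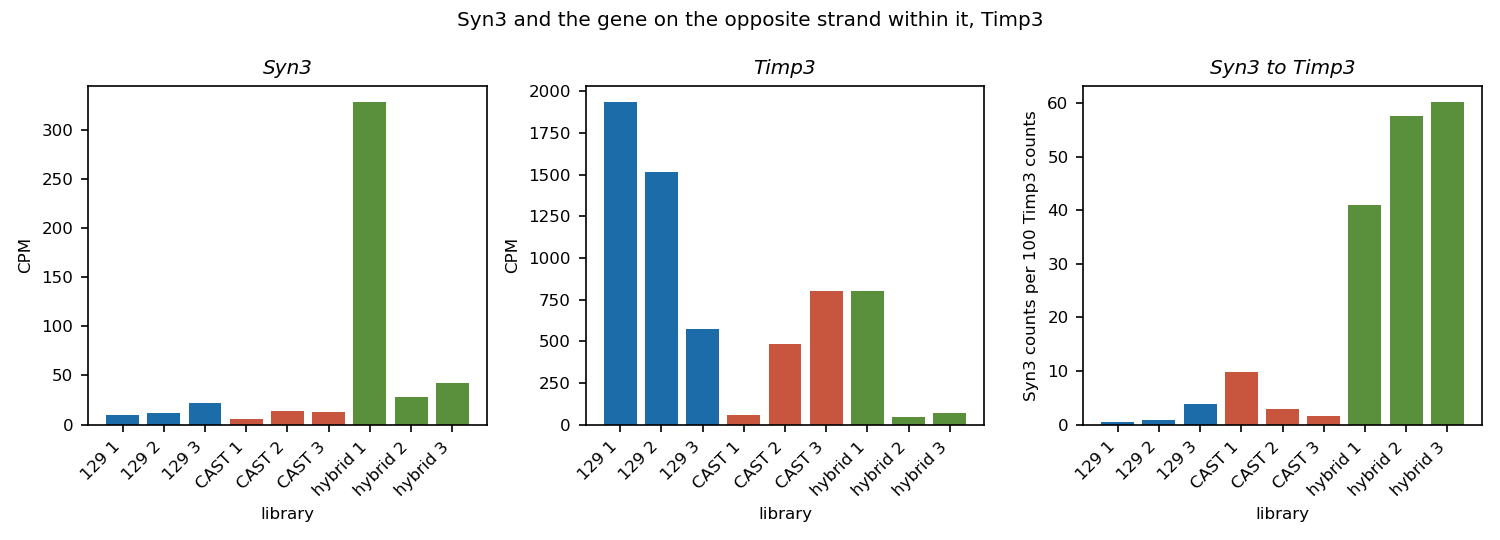
Bars show Syn3 in CPM (left), Timp3 in CPM (middle) and Syn3 counts per 100 Timp3 counts (right), with 1 bar per library on linear axes from 0. Syn3 reaches 328 CPM in hybrid 1, and the right panel separates the 3 hybrid libraries, at 40.9 to 60.2, from the 6 parental libraries, at 0.508 to 9.74.

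The vesicle membrane proteins span the bilayer. Synaptophysin (Syp) binds Vamp2, synaptogyrins are its relatives, and Sv2 proteins are transporter-like glycoproteins. Syp stood at 237, 357 and 547 CPM in 129, at 607, 408 and 313 CPM in CAST, and at 150, 202 and 358 CPM in the hybrid. Syngr3 stood at 71.6, 98.3 and 154 CPM in 129, at 345, 135 and 102 CPM in CAST, and at 66.0, 146 and 177 CPM in the hybrid. For both genes CAST 1 was the highest library and hybrid 1 the lowest, and the lines overlapped. Syp had a log2 fold change of −0.69 ± 0.50 (SE) in the hybrid against 129 and of −0.90 ± 0.50 (SE) against CAST, with adjusted p of 0.411 and 0.466 (edgeR). Syngr3 was above Syngr1 per length in 9 of 9 libraries, the ratio of Syngr1 to Syngr3 lying between 0.192 and 0.566. Sv2a was above Sv2b by 34.9 to 855 times in TPM, whereas Sv2a and Sv2c changed order between libraries, with Sv2a higher in 4 of 9. The ratio of Sv2a to Sv2c was 3.02 in CAST 1, 5.30 in hybrid 2 and 3.36 in hybrid 3. In the other libraries it ran from 0.724 in 129 2 to 1.14 in hybrid 1. Sv2a has 4636 exonic bases and Sv2c 9700, and the part of the length slopes in this ratio was not tested. Of the 7 genes of this group, 4 had a positive log2 fold change in CAST against 129, 2 in the hybrid against 129 and 2 in the hybrid against CAST.

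Synaptotagmins carry the calcium sensor of the vesicle, and Doc2b is a high-affinity calcium sensor of the same domain type. Syt4, which is known from dense-core vesicles and binds calcium weakly, stood at 597, 840 and 1281 CPM in 129, at 159, 651 and 588 CPM in CAST, and at 264, 70.7 and 322 CPM in the hybrid. Every hybrid library was below every 129 library, and CAST 1 was below both other CAST libraries. The log2 fold change in the hybrid against 129 was −2.05 ± 0.72 (SE), not past the threshold (edgeR adjusted p = 0.140). DESeq2 gave −2.05 with an adjusted p of 0.0209, and without both CAST 1 and hybrid 2 edgeR gave −1.61 with an adjusted p of 0.0406, where 9.73% of all genes were called. Syt4 shares 14.5% of its exonic bases with Gm26658, a gene on the other strand. Gm26658 had 12, 5 and 9 counts in 129 and 6, 9 and 12 counts in CAST, but 1497, 110 and 1721 counts in the hybrid. Beside them Syt4 had 10734, 13775 and 22299 counts in 129, 1544, 11593 and 8197 counts in CAST, and 3727, 506 and 4606 counts in the hybrid, so Gm26658 reached 40.2, 21.7 and 37.4 counts per 100 Syt4 counts in the hybrid and at most 0.389 in a parental library. Among genes with 5% to 25% of their exonic bases shared, 1.92% were called lower in the hybrid than in 129, against 1.31% with none. The part of the overlap with Gm26658 in the Syt4 values was not tested.

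Syt1, the fast calcium sensor of release, stood at 103, 233 and 534 CPM in 129, at 161, 287 and 297 CPM in CAST, and at 116, 68.6 and 215 CPM in the hybrid. The 129 libraries alone spanned 5.18 times, the widest span of any of the 35 genes in that line, and the lines overlapped. Syt1 was above Syt2 in 9 of 9 libraries, by 3.97 to 11.4 times in TPM. Doc2b and Syt5 were singled out after their values were seen, as the genes whose CAST libraries all lay above the 129 libraries. Doc2b stood at 3.61, 2.87 and 3.96 CPM in 129, at 14.9, 15.7 and 6.45 CPM in CAST, and at 10.8, 7.96 and 8.18 CPM in the hybrid. Its log2 fold change in CAST against 129 was 1.82 ± 0.42 (SE), with an adjusted p of 0.0881 by edgeR and 0.00183 by DESeq2. Syt5 was at 26.2, 28.2 and 42.6 CPM in 129, at 139, 57.9 and 49.9 CPM in CAST and at 13.3, 35.3 and 44.4 CPM in the hybrid. In CAST against 129 the log2 fold change of Syt5 was 1.35 ± 0.55 (SE), with an adjusted p of 0.305 by edgeR. Per length, Syt5 was above Syt1 in CAST 1, at 138 against 45.7 TPM, and in hybrid 2, at 32.7 against 18.1 TPM, while Doc2b was below Syt1 in all 9 libraries. Syt5 has 2380 exonic bases and Syt1 8338, and the part of the length slopes in their order was not tested.

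The SNARE proteins drive fusion. Vamp2 stood at 207, 259 and 396 CPM in 129, at 547, 313 and 283 CPM in CAST, and at 207, 304 and 441 CPM in the hybrid. Cplx1 stood at 114, 185 and 302 CPM in 129, at 577, 200 and 130 CPM in CAST, and at 105, 203 and 236 CPM in the hybrid. CAST 1 was the highest library for both, and the other libraries of the 3 lines were intermingled. In the hybrid against 129 the log2 fold changes were 0.14 ± 0.46 (SE) for Vamp2 and −0.15 ± 0.62 (SE) for Cplx1, with adjusted p of 0.859 and 0.893 (edgeR). Vamp2 was above Vamp1 in 9 of 9 libraries, by 8.66 to 22.1 times in TPM. Cplx1 was above Cplx2 in 9 of 9 libraries, by 1.51 to 5.13 times in 7 of them, but by 31.5 times in CAST 1 and 17.8 times in hybrid 2. In those 2 libraries Cplx2 was the lowest of its line, at 41.2 CPM in CAST 1 against 210 and 194 CPM in CAST 2 and 3, and at 25.7 CPM in hybrid 2 against 120 and 117 CPM in hybrid 1 and 3. Cplx1 has 2189 exonic bases and Cplx2 4928, and the part of the length slopes in their ratio was not tested. Of the 6 genes of this group, 5 had a positive log2 fold change in CAST against 129, 2 in the hybrid against 129 and 0 in the hybrid against CAST.

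Nsf is the ATPase that pulls spent SNARE bundles apart, and Napb encodes an attachment protein through which it grips them. Nsf stood at 147, 178 and 240 CPM in 129, at 175, 167 and 170 CPM in CAST, and at 116, 85.2 and 157 CPM in the hybrid. Napb stood at 112, 161 and 284 CPM in 129, at 134, 209 and 173 CPM in CAST, and at 64.2, 32.0 and 94.5 CPM in the hybrid. Every hybrid library was below every parental library for Napb, and below every CAST library for Nsf. The log2 fold changes of Napb were −1.54 ± 0.50 (SE) against 129 and −1.43 ± 0.50 (SE) against CAST, with adjusted p of 0.114 and 0.170 (edgeR), and DESeq2 gave 0.0235 against 129. Nsf had a log2 fold change of −0.52 ± 0.36 (SE) against CAST, with an adjusted p of 0.601 (edgeR). Neither gene shares exonic bases with a gene on the other strand.

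Rab3 proteins are vesicle GTPases, and Rims1, Rims2, Unc13a, Bsn and Pclo build the active zone where vesicles dock and are primed. Rab3a stood at 91.2, 114 and 187 CPM in 129, at 580, 165 and 127 CPM in CAST, and at 85.5, 342 and 279 CPM in the hybrid. Rab3c stood at 278, 403 and 642 CPM in 129, at 81.1, 295 and 307 CPM in CAST, and at 187, 29.8 and 62.5 CPM in the hybrid. CAST 1 and hybrid 2 were each the highest library of their line for Rab3a and the lowest for Rab3c. Rab3a was above Rab3c per length in 9 of 9 libraries, by 1.53 to 3.03 times in 6 of them and by 38.7, 62.3 and 24.2 times in CAST 1, hybrid 2 and hybrid 3. Rab3a has 2226 exonic bases and Rab3c 12049. The libraries with the large ratios were those with negative length slopes, whose part in the ratios was not tested. Every hybrid library was below every 129 library for Rab3c, and the log2 fold change was −2.24 ± 0.76 (SE), with an adjusted p of 0.130 by edgeR. That call appeared without hybrid 1, at −3.26 with an adjusted p of 0.0384, and with exon length as an offset, at −1.71 with an adjusted p of 0.0335, where 7.55% of all genes were called. Bsn and Pclo, the giant scaffold proteins, were chosen after their values were seen: their hybrid libraries, at 30.7 to 97.3 CPM and 20.1 to 81.5 CPM, were all below those of 129, at 101 to 277 CPM and 90.5 to 366 CPM, with adjusted p of 0.233 and 0.223 (edgeR). Of the 7 genes of this group, 1 had a positive log2 fold change in CAST against 129 (median −0.54), 1 in the hybrid against 129 (median −0.95) and 0 in the hybrid against CAST (median −0.40). Over all tested genes the medians were 0.06, 0.02 and −0.08. The positive gene was Rab3a, and the others have 7362 to 22457 exonic bases. All tested genes over 5000 bases had median log2 ratios to the rest of their line of −0.99 in CAST 1 and −0.76 in hybrid 2. The part of exon length in the group medians was not tested.

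The recycling genes retrieve membrane after fusion. Snap91, the neuronal clathrin adaptor AP180, stood at 154, 229 and 364 CPM in 129, at 242, 251 and 227 CPM in CAST, and at 177, 139 and 301 CPM in the hybrid. Dnm1, the dynamin that cuts vesicles from the membrane, stood at 128, 159 and 269 CPM in 129, at 550, 229 and 190 CPM in CAST, and at 158, 321 and 365 CPM in the hybrid. Snap91 was the more even gene in CAST, and for Dnm1 CAST 1 was again the highest library. In CAST against 129 the log2 fold change was −0.05 ± 0.44 (SE) for Snap91 and 0.80 ± 0.54 (SE) for Dnm1, with adjusted p of 0.960 and 0.487 (edgeR). Dnm1 was above Dnm3 in 9 of 9 libraries, by 9.81 to 18.9 times in TPM in 6 of them and by 103, 53.5 and 49.7 times in CAST 1, hybrid 2 and hybrid 3. Dnm1 has 5249 exonic bases and Dnm3 24452, and the part of the length slopes in these ratios was not tested.

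Within 129 the genes moved together: 129 3 was the highest library of its line for 33 of 35 genes, against 44.7% of all tested genes, and 129 1 the lowest for 29, against 40.6% of all. The 13 genes with up to 5000 exonic bases and the 22 longer ones were alike there, at medians of 1.74 and 1.89 times the mean of the other 129 libraries in 129 3. The neuron markers also had their highest 129 sum in 129 3, at 12386 CPM against 5528 and 8146 CPM, and the fibroblast markers their lowest, at 3634 CPM against 18049 and 13042 CPM. Hybrid 3, with 13163 CPM of neuron markers against 5330 and 9712 CPM and 908 CPM of fibroblast markers against 19098 and 3515 CPM, was the highest library of its line for 23 genes, against 22.8% of all tested genes. CAST 1 had the highest neuron sum of its line, at 14624 CPM against 9765 and 7015 CPM. Its mean log2(CPM + 1) over the same neuron markers was instead the lowest of its line, at 8.26 against 9.05 and 8.73. In 129 3 and hybrid 3 that mean was the highest of the line, as the sum was. The fibroblast sum of CAST 1 was the lowest of its line, at 461 CPM against 3819 and 4256 CPM. The part of these cell types in the gene levels was not tested. CAST 1 split the list by exon length. It was the highest library of its line for 15 genes, with a median exon length of 4528 bases, and the lowest for 17, with a median of 8381 bases, beside 45.2% and 47% of all tested genes. The shorter genes had a median of 1.84 times the mean of the other CAST libraries, with 10 of 13 above it, and the longer genes 0.469 times, with 15 of 22 below. All tested genes split in the same way in CAST 1, with median log2 ratios of 0.53 up to 5000 bases and −0.99 above. Hybrid 2 was the lowest library of its line for 19 genes, with a median exon length of 8346 bases, and for 40.5% of all tested genes. Its shorter genes were at 1.06 times and its longer genes at 0.470 times the mean of the other hybrid libraries, with 18 of the 22 longer genes below. Over all longer genes tested, the median log2 ratio in hybrid 2 was −0.76. The split at 5000 bases was chosen after the values were seen.

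**Figure D4:**
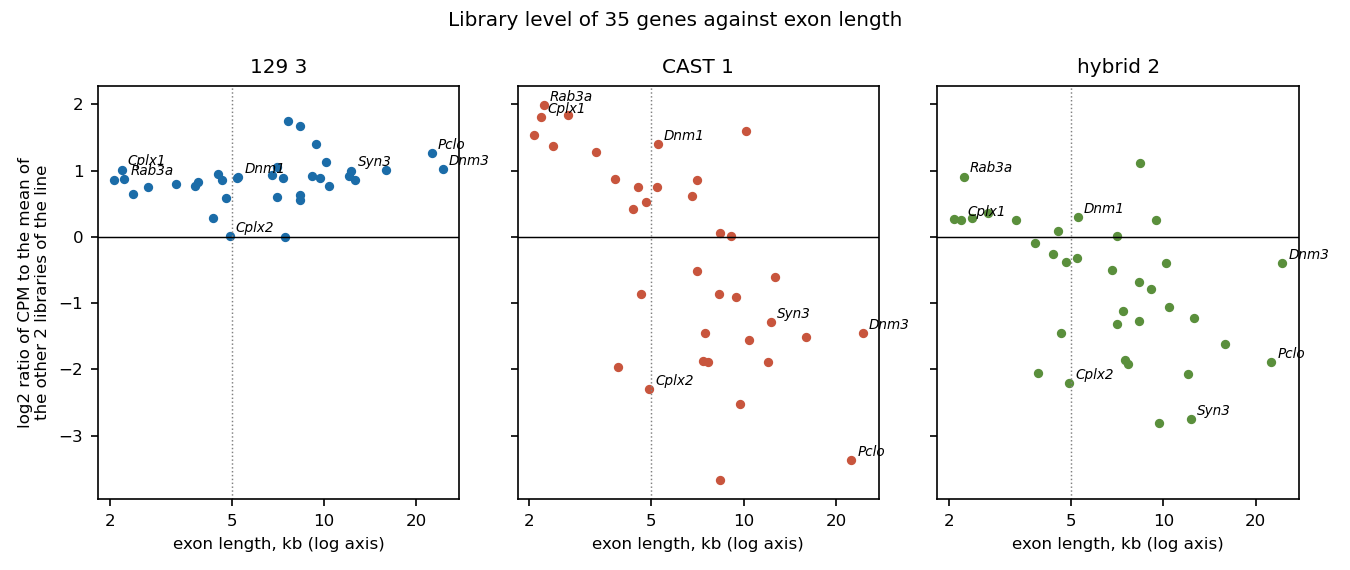
Each point is 1 of the 35 genes in 129 3, CAST 1 or hybrid 2, with exon length in kb on a log axis and the log2 ratio of its CPM to the mean of the other libraries of its line, and the dotted line marks the split at 5000 bases. Nearly all points lie above 0 in 129 3 at every length, while most genes over 5000 bases lie below 0 in CAST 1 (15 of 22) and hybrid 2 (18 of 22), and the shorter genes lie above 0 for 10 of 13 in CAST 1 and 7 of 13 in hybrid 2.

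In CAST against 129, 0 of the 35 genes were called by edgeR, where 0.917% of all tested genes were. An unadjusted p under 0.05 was found for 4 of the 35 and for 14.6% of all. DESeq2 called 1, Doc2b, and limma-voom called 0, where they called 6.33% and 1.77% of all genes. The median log2 fold change of the list was −0.05, with 17 of 35 positive, beside 0.06 over all tested genes. Leaving out 1 library at a time moved this median from −0.30, without 129 1, to 0.32, without 129 3, and with exon length as an offset it was 0.30, so it has no settled sign. The libraries of CAST and 129 did not overlap for 3 genes, which is 8.57% of the list beside 28.6% of all tested genes: Doc2b and Syt5 were higher in CAST and Sv2b was lower. Sv2b stood at 0.206 to 2.75 CPM in CAST and 2.87 to 6.84 CPM in 129.

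In the hybrid against 129, edgeR again called 0 of 35, where 7.02% of all tested genes were called. Of the 35, 7 had an unadjusted p under 0.05, as did 22.2% of all. Limma-voom called 0, beside 7.67% of all genes, and DESeq2 called 5, beside 14.2%. The 5 were Syn3 and Doc2b, higher in the hybrid, as were 9.95% of all genes, and Syt4, Napb and Rab3c, lower, as were 4.21%. The median of the list was −0.59, with 11 of 35 positive, beside 0.02 over all genes, and it stayed between −0.87, without hybrid 3, and −0.34, without 129 3. It was −0.37 without hybrid 2 and also without both CAST 1 and hybrid 2, and −0.17 with exon length as an offset. The 23 genes that share no exonic base with the other strand had a median of −0.52, with 6 positive. The libraries did not overlap for 9 genes, 25.7% of the list beside 37.5% of all tested genes. Syn3 and Doc2b were higher in the hybrid by this count, and Syn2, Sv2c, Syt4, Napb, Rab3c, Bsn and Pclo were lower.

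In the hybrid against CAST, edgeR called 0 of 35 beside 6% of all tested genes. Of the 35, 3 had an unadjusted p under 0.05, as did 15.8% of all. Limma-voom called 0 and DESeq2 called 1, Syn3, beside 6.73% and 10.8% of all genes. The median was −0.67, with 4 of 35 positive, beside −0.08 over all genes, and ran from −0.88 to −0.50 with 1 library left out. Without both CAST 1 and hybrid 2 it was −0.39. The 4 positive genes were Syn3, Syt7, Sv2b and Sv2a, the last at 0.00 ± 0.53 (SE). Among the 23 genes with no shared exonic base, 1 was positive and the median was −0.74. The libraries did not overlap for 5 genes, 14.3% of the list beside 19.2% of all tested genes: Syn3 was higher in the hybrid, and Syn2, Syt5, Nsf and Napb were lower. Against the midparent the median was −0.55, with 6 of 35 positive, beside −0.02 over all genes, and it was −0.85 without hybrid 3, −0.36 without both CAST 1 and hybrid 2, and −0.33 with the exon length offset. The hybrid libraries enter 3 of the comparisons and each parent enters 3, so the comparisons are not independent of one another. Marker genes of cell types also differed between the lines. The fibroblast markers were positive for 8 of 8 genes in the hybrid against CAST, with a median log2 fold change of 2.03 and 4 genes at an unadjusted p under 0.05, for 7 of 8 against the midparent (median 1.33) and for 4 of 8 against 129 (median −0.16). In CAST against 129 they were positive for 1 of 8 (median −2.52). The spinal motor neuron markers were positive for 2 of 8 genes in the hybrid against CAST (median −0.59), 1 of 8 against the midparent (−0.45) and 1 of 8 against 129 (−0.75). The general neuron markers were positive for 3, 5 and 5 of 10 in the same comparisons (medians −0.45, −0.22 and −0.28). No fibroblast, spinal motor neuron or general neuron marker was called, and their part in the medians of the list was not tested. Of the tested microglia and blood markers, 1 of 2 was called higher in the hybrid against 129, CAST and the midparent. The same held for 1 of 5 oligodendrocyte lineage markers. Of 4 skeletal and cardiac muscle markers, 1 was called lower against 129 and the midparent. Of 5 astrocyte markers, 1 was called higher against the midparent.

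**Figure D5:**
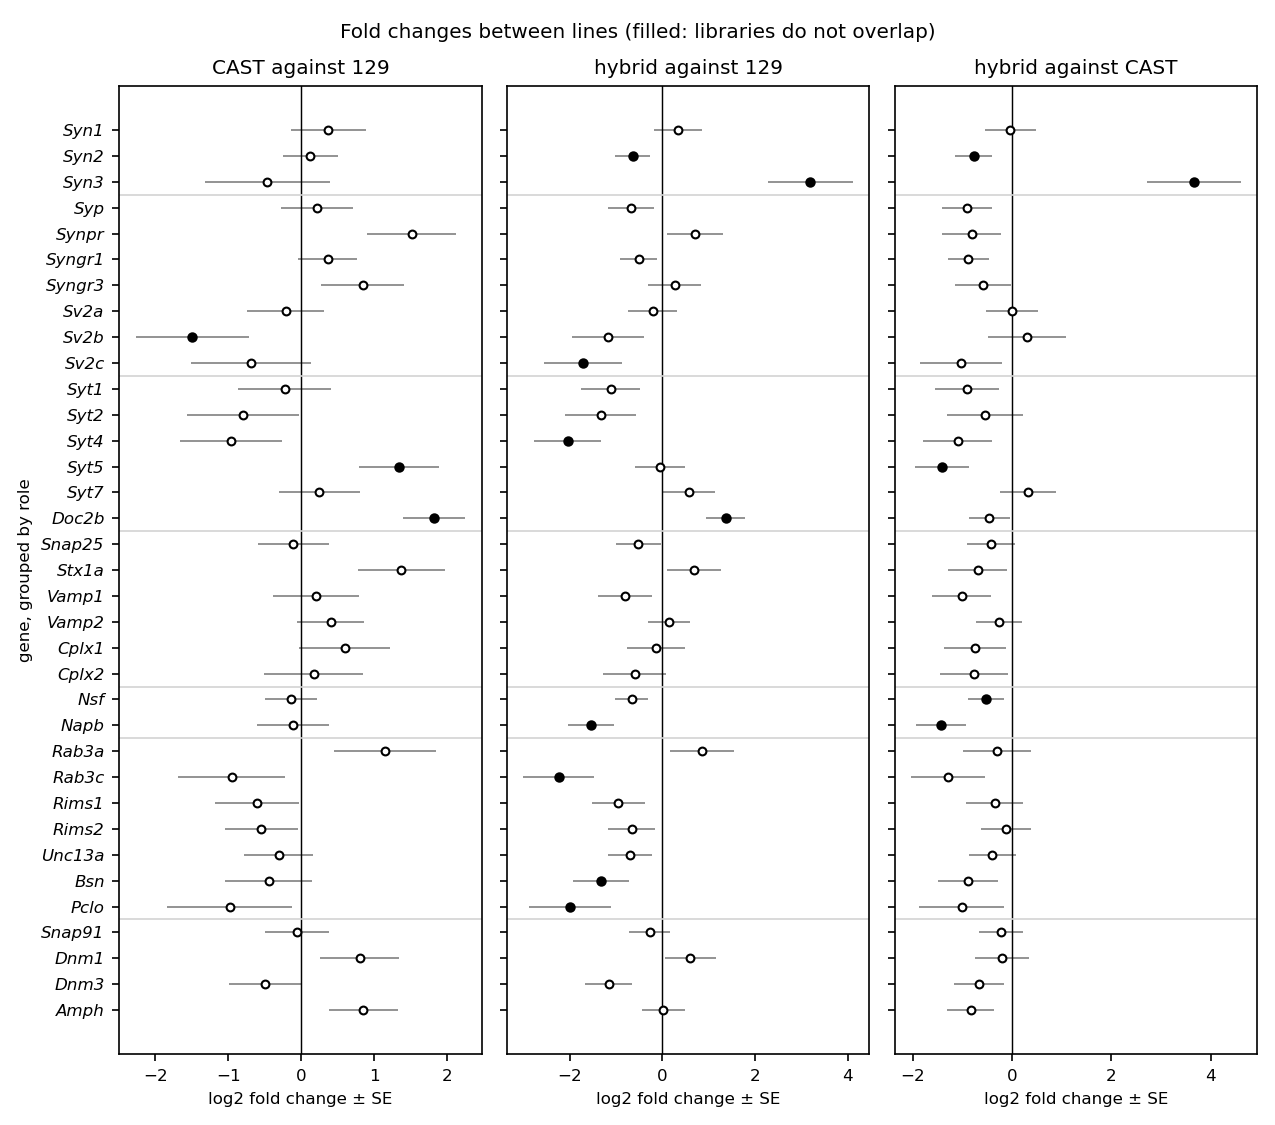
Points are log2 fold changes with SE bars for the 35 genes, grouped by role, in the 3 comparisons between lines, and filled points mark genes whose libraries do not overlap. The hybrid panels lie mostly left of 0, at medians of −0.59 and −0.67, with Syn3 far to the right, and the CAST panel is spread around 0.

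A list of 112 other genes of the vesicle cycle, of which 101 were tested, was described in the same way. In CAST against 129, edgeR called 0 of 101. DESeq2 called 1 there, beside 6.33% of all tested genes, and 9 had an unadjusted p under 0.05 in edgeR, beside 14.6% of all. In the hybrid against 129 edgeR called 1 higher and 1 lower of the 101, and in the hybrid against CAST 1 higher and 2 lower. Over all tested genes the shares called by edgeR in these comparisons were 0.917%, 7.02% and 6%. The medians were 0.19, −0.29 and −0.33 in these comparisons. The higher gene was Atp6v0c, a subunit of the proton pump that acidifies vesicles. Atp6v0c stood at 6.45, 4.45 and 8.10 CPM in 129, at 23.3, 11.2 and 11.1 CPM in CAST, and at 212, 540 and 389 CPM in the hybrid. Its log2 fold change was 5.90 ± 0.58 (SE) against 129 and 4.64 ± 0.55 (SE) against CAST, with adjusted p of 6.0e-04 and 0.00131 (edgeR). Syngr2, a broadly expressed relative of Syngr1 and Syngr3, was the lower gene in both. Syngr2 stood at 37.5, 31.7 and 18.8 CPM in 129 and 52.3, 24.5 and 31.5 CPM in CAST, and it had 0 counts in all 3 hybrid libraries. With a floor of 3 counts over the hybrid group, it was at least 349-fold lower than in 129 and at least 396-fold lower than in CAST. Whether the hybrid libraries were counted with the same annotation and strand setting as the parental ones is not given in the sources used here, and the part of such a difference in the values of Syngr2 and Atp6v0c was not tested. Scamp1, a carrier membrane protein, was the second gene lower in the hybrid than in CAST, at 37.1, 9.64 and 31.9 CPM against 70.2, 160 and 180 CPM. The difference was −2.38 ± 0.55 (SE) in log2, with an adjusted p of 0.0335 by edgeR. None of the 35 genes was at 0 in a whole line.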

How the data were processed

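Per the labels' protocols, polyadenylated RNA was selected from DNase-treated total RNA and made into cDNA with random hexamers. Reads were aligned with STAR to mm10, per the submitters' processing notes. Which STAR version, counting tool, annotation and strand setting were used is not given in the sources used here. As deposited by the authors, values are raw counts, whole numbers per Ensembl gene. Column names carry the line and a B number, read here as the replicate number of the labels.

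Symbols, exon lengths and overlaps came from GENCODE vM21 (GRCm38, the assembly of mm10), which gave a symbol for 27030 of 27071 IDs. edgeR 4.0.16 in R 4.3.3 kept 14839 genes (filterByExpr, minimum count 10, minimum total 15, proportion 0.7) and fitted all 9 libraries in 1 robust quasi-likelihood model with TMM scaling. Tests were two-sided, the Benjamini-Hochberg adjustment ran across the whole set of tested genes, and a gene was called under 0.05. SEs came from the quasi-likelihood F statistic. TPM divided counts by union exon length. The fit was tested on simulated counts with the same dispersion for every gene and no effect of exon length. That test therefore does not cover the spread or the length slopes of these libraries. DESeq2 1.42.0 and limma 3.58.1 (voom) were alternatives.

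Values per library are given for called genes of the list and for the 2 highest by mean TPM in each role; of the other vesicle cycle genes, up to 2 per sublist, comparison and direction were named among those called at a mean of at least 5 CPM. The genes, lists and roles were chosen with earlier results of these data known. Most same-number libraries did not deviate together. The deviations of 129 3 and hybrid 3 correlated at 0.49, and those of 129 1 and hybrid 1 at 0.19. The labels state no pairing, and numbers were not used as pairs in the main fit.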

Additional observations from a re-analysis of the deposited data

How the results depend on the processing

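The medians of the list kept their sign in every alternative run for the hybrid against 129, against CAST and against the midparent, and in CAST against 129 the median crossed 0. Over the 35 genes and 4 comparisons, 2460 of 2485 values recomputed under alternatives kept their side of the threshold, 4 lost a call and 21 gained one. Of the same 2485 values, 143 uncalled ones changed sign, the largest of them 1.16 in size in log2 before the change, and 0 called values did.

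DESeq2 called 1 gene of the list in CAST against 129, 5 in the hybrid against 129, 1 in the hybrid against CAST, 3 against the midparent and 3 in the joint test, where edgeR called 0, 0, 0, 1 and 1. Over all genes DESeq2 called 6.33%, 14.2%, 10.8%, 12.1% and 16.9%. With exon length as an offset these counts were 2 in the hybrid against 129 (Syn3 and Rab3c), 1 in the hybrid against CAST (Syn3), 2 against the midparent (Syn3 and Rab3c) and 2 in the joint test, beside 7.55%, 6.90%, 8.28% and 9.70% of all genes. Without both CAST 1 and hybrid 2, 2 were called in the hybrid against 129 (Syn3 and Syt4), beside 9.73% of all genes. In the hybrid against CAST, 1 gene, Syn3, was called with DESeq2 size factors in edgeR and with no filter on low counts, beside 6.11% and 4.33% of all genes. Against the midparent limma-voom called 0, beside 7.90% of all genes, and in the joint test it also called 0. With the replicate number as a block, 0 were called against the midparent and in the joint test. Syn3 against the midparent then had a log2 fold change of 2.96 with an adjusted p of 0.175 (edgeR). Shares over all genes are not given here for the block or for limma-voom in the joint test. The numbers share no stated batch, and 2 of 9 same-number pairs had deviations correlated above 0.1 (range −0.72 to 0.49). The cause of these changes was not tested.

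With 1 library left out at a time, 0 to 1 genes of the list were called in each comparison of the hybrid and in the joint test. In CAST against 129, 0 were called. Shares over all genes in the fits with 1 library left out are not given here, so counts from those fits have no background beside them. Of the 101 other vesicle cycle genes, 2 to 4 were called in the hybrid against 129, with 4 without CAST 1, and 2 to 5 against the midparent, with 5 without CAST 1. DESeq2 called 1, 7 and 5 of them in CAST against 129, the hybrid against 129 and the midparent comparison, beside 6.33%, 14.2% and 12.1% of all genes, and the fit without both CAST 1 and hybrid 2 called 1, 4 and 4, beside 1.52%, 9.73% and 8.97%.

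The TMM-scaled levels of low genes such as Sv2b and Doc2b rest on few reads, hybrid 2 was the shallowest library at 7763077 counts, and each line has 3 libraries. Counts per gene do not record the strand or exon of a read.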
